A study of Mus musculus with 2 samples.

Results

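Hemoglobin transcripts were examined in immune cells sorted from mouse brain, as the 4 genes of the adult globin chains (Hbb-bs, Hbb-bt, Hba-a1 and Hba-a2) among the 32285 genes of the count tables. They were taken by symbol and chosen by their measured counts, since hemoglobin transcripts had stood out among Ms4a7-high microglia in an earlier look at these data, so their levels by genotype, by Ms4a7 count and by type of cell are a description without a test. Cells came from the brains of 4 control Arpc4 fl/fl mice and 4 Tg(Cx3cr1-Cre) Arpc4 fl/fl mice (Arpc4ΔCx3cr1), littermates aged 12 weeks. Both genotypes carried the floxed Arpc4 allele, and the Cre transgene, driven by the Cx3cr1 promoter that is active in microglia and other macrophages, was present only in Arpc4ΔCx3cr1 mice, so an effect of Cre alone and of the loss of Arpc4, a subunit of the actin-branching Arp2/3 complex, cannot be told apart. CD45+ cells, that is leukocytes, were sorted from perfused brains, each mouse received its own tag, and the mice were pooled in 1 library in which transcripts were counted as unique molecular identifiers (UMIs).

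After a filter on cells, 19863 cells remained, with 1257 to 2831 barcodes and 5251527 to 12878691 gene UMIs deposited per mouse. Of these cells 17039 were microglia-like, and each of 12 microglia markers was found in 58.8 to 100% of them against 21.4 to 76.8% of T and B cells (lymphocytes) from the same pool. Arpc4 was lower in microglia of Arpc4ΔCx3cr1 mice, by 0.63 on the log2 scale (SE 0.05, edgeR adjusted p = 5.77e-06, all 4 below all 4 controls). Xist, which is transcribed from the inactive X chromosome of females, stood at 1384 CPM (counts scaled to a common total of gene UMIs) in microglia of Arpc4ΔCx3cr1 mouse 1 and at 3.66 to 13.2 CPM in the other 7 mice. The study's methods name 1 female mouse among the Arpc4ΔCx3cr1 mice, without its number, and describe the other mice as male. The study left the female out of its later analysis to keep sex from biasing it, whereas all 8 mice were kept here.

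Hemoglobin carries oxygen in red blood cells as a tetramer of alpha and beta chains with heme. In adult mice the beta chains come from Hbb-bs and Hbb-bt and the alpha chains from Hba-a1 and Hba-a2, and red cell precursors fill themselves with these transcripts before the nucleus is lost. Red cells lack CD45, and macrophages take up aged red cells and break down their heme through heme oxygenase, encoded by Hmox1.

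The genes lie in 2 clusters. Hbb-bs (chr7:103826534-103828096, mm10, minus strand) and Hbb-bt (chr7:103812524-103813996, minus strand) are neighbours on chromosome 7. Hba-a1 (chr11:32283511-32284465, plus strand) and Hba-a2 (chr11:32296489-32297298, plus strand) lie on chromosome 11, with another globin gene, Hbq1b, between them. The annotation (GENCODE vM21) places no other gene over any of them. Within a pair the transcripts are close copies: of all 90-base windows, the length of a transcript read, 58.9% of those of Hba-a1 and 77.2% of those of Hba-a2 occur letter for letter in the partner, as do 63.3% for Hbb-bs and 55.5% for Hbb-bt. Counts of a single member are therefore less certain than those of a pair, and sums over the members are given first.

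The promoter windows are shown because the members were counted together although they are governed from 2 loci. Each window runs from 250 bases before to 50 bases after the start of transcription (RefSeq, GRCm38.p6), written along the gene's strand, and capitals mark 4 short motifs on either strand. They are the GATA box bound by the GATA factors, the CACCC box bound by Klf1 and its relatives, the CCAAT box, and ATATAA, a form of the TATA box.

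Hbb-bs (chr7:103827879-103828178): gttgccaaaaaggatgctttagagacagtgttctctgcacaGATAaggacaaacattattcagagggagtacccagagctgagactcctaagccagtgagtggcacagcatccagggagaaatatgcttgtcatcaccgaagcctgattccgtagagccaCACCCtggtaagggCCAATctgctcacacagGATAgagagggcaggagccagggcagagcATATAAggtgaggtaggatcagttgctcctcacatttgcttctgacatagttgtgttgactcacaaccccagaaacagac
Hbb-bt (chr7:103813874-103814173): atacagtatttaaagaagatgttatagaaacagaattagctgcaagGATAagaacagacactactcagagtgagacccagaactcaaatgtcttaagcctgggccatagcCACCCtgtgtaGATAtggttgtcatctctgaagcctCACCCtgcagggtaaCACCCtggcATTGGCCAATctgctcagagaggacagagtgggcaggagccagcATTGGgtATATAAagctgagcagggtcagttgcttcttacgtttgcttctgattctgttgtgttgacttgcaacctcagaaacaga
Hba-a1 (chr11:32283422-32283721): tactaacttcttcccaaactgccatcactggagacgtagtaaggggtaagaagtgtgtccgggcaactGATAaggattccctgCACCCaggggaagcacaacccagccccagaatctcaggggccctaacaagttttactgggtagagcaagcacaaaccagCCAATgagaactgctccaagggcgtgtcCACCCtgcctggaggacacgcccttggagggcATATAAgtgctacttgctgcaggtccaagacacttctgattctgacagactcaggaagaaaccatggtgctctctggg
Hba-a2 (chr11:32296242-32296541): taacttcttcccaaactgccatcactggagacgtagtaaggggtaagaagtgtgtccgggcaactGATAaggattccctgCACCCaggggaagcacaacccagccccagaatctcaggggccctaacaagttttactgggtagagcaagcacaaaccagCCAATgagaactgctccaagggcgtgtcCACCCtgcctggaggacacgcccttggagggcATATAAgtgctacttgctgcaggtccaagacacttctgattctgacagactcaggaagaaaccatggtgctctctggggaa

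All 4 windows hold all 4 motifs. Among the 32817 promoter windows of this length in the table, the GATA box was found in 57.9%, the CACCC box in 57.5%, the CCAAT box in 37.4% and the TATA form in 9.83%, so that form was the least common of the 4. The windows of Hba-a1 and Hba-a2 were identical over the 297 bases they share at a shift of 3 bases, and those of Hbb-bs and Hbb-bt were 56.2% identical over 299 bases. The match of letters is a description and says nothing of binding.

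Nearly all hemoglobin UMIs lay in 4 cells. The 19863 cells held 23137 hemoglobin UMIs, of which 98.2% (22722) were in 4 cells with at least 1000 each, called hemoglobin-rich here. Of the other cells 302 had any, with 415 UMIs in all, and 284 of them had a single UMI. Between these extremes stood 1 cell with 75 UMIs and 1 with 12, and the 16 others with more than 1 had 2 to 6. The limit of 1000 was set after the values were seen, and no cell lay between 75 and 3140 UMIs.

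**Figure D1:**
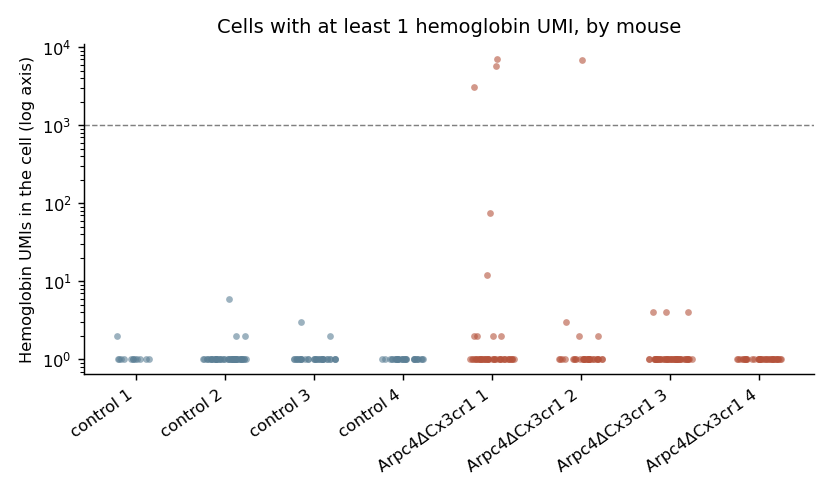
Hemoglobin UMIs (log axis) in each of the 306 cells with at least 1, by mouse; the dashed line marks 1000 UMIs. The 4 cells above the line, with 3140 to 7067 UMIs, came from Arpc4ΔCx3cr1 mice 1 and 2, and in the control mice no cell had more than 6.

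The 4 hemoglobin-rich cells came from 2 of the 4 Arpc4ΔCx3cr1 mice and from no control mouse. Arpc4ΔCx3cr1 mouse 1, the mouse with Xist, held 3 of them, with 7067 hemoglobin UMIs of 10091, 5730 of 9524 and 3140 of 6460. Arpc4ΔCx3cr1 mouse 2 held 1, with 6785 of 8225. The tag of the labelled mouse took 98.7, 99.0 and 98.6% of the tag UMIs in the 3 cells of mouse 1 and 90.5% in that of mouse 2. Hemoglobin thus made up 48.6 to 82.5% of the UMIs of these barcodes.

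The 3 rich cells of mouse 1 carried macrophage as well as erythroid transcripts. Their class depended on the resolution of the clustering, which sets how finely cells are divided: at 0.8, the value used here, they fell in the microglial cluster with the most Ms4a7, and at 0.4 among the CAM-like cells, the macrophages of the brain's borders. Ms4a7 is a gene of macrophages, high in that cluster, and had 4, 0 and 5 UMIs in the 3 cells. C1qa, a complement gene of microglia, had 53, 45 and 23 UMIs in them, and Apoe, a lipid carrier, 84, 189 and 190. Over their UMIs outside hemoglobin, C1qa stood at 11935 CPM against 9374 CPM in the other 330 cells of that cluster and mouse, and Apoe at 45670 against 42369 CPM. P2ry12, a purine receptor of homeostatic microglia, had 0 UMIs in the 3 cells and was found in 37.6% of the others.

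Red cell genes were in the same 3 barcodes. Alas2, the first enzyme of heme synthesis in the red cell lineage, had 10, 6 and 3 UMIs, which is 1874 CPM outside hemoglobin against 0.94 CPM in the other cells of the cluster. Car2, a carbonic anhydrase of red cells among other cells, had 23 UMIs in the 3 cells and 0 in the other 330. Slc4a1, the anion exchanger of the red cell membrane, had 0, 2 and 0 UMIs. Because the cells were singled out by their hemoglobin, no test was made on their genes.

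The rich cell of mouse 2 had 575 genes and fell in a cluster of low UMI counts that was left unnamed. Of the 23 erythroid markers measured, 18 were found in it, with 102 UMIs, among them Alas2 (14), Bpgm (11) and Slc4a1 (10). Of 12 microglia markers it had 6, with 7 UMIs in all, and 0 Ms4a7 UMIs. In the 3 cells of mouse 1 the numbers were 7, 5 and 4 erythroid markers and 6, 10 and 4 microglia markers. In microglia with fewer than 20 hemoglobin UMIs, the median number of erythroid markers was 1 and the highest 5.

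The cell with 75 hemoglobin UMIs of 923 was also from Arpc4ΔCx3cr1 mouse 1 and fell among the CAM-like cells. It held 1 UMI each of Alas2 and Ms4a7, and 4 of Pf4, a marker of these macrophages.

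The unfiltered table of the pool held 10 barcodes with at least 20 hemoglobin UMIs, of which 5 were the cells above and 5 had been given to no mouse. The richest of the latter had 4772 hemoglobin UMIs of 13067 with all 12 microglia markers, and its tags were split between Arpc4ΔCx3cr1 mouse 2 (981 UMIs) and control mouse 2 (420). The next held 3921 of 4032 UMIs and 94 genes, with 111 UMIs outside hemoglobin, and its leading tag took 49.7%. The other 3 had 320 of 32530, 147 of 220 and 49 of 112, each with the tag of Arpc4ΔCx3cr1 mouse 1 in the lead. Hbb-bt differed among the barcodes: it took 7.88 to 22.7% of the beta UMIs in 7 of them, and in those last 3 it had 1 UMI each, or 0.41, 1.08 and 3.03%. Alpha genes took 19.9 to 41.3% in all 10.

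**Figure D2:**
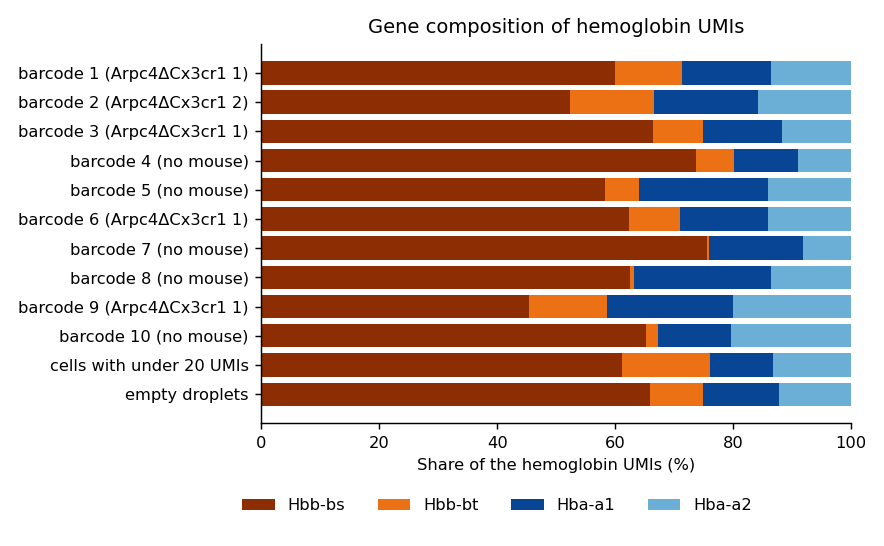
Share (%) of the hemoglobin UMIs on each of the 4 genes in the 10 barcodes of the pool with at least 20 hemoglobin UMIs, from the most (7067) to the fewest (49), in cells with under 20, and in empty droplets. Hbb-bs was the largest part in every bar, and Hbb-bt was nearly missing from barcodes 7, 8 and 10.

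Outside the rich cells, hemoglobin was found in 1 to 2% of microglia of both genotypes. In control mice 1 to 4 the share of microglia with at least 1 hemoglobin UMI was 1.00, 1.72, 1.14 and 1.16%, and in Arpc4ΔCx3cr1 mice 1 to 4 it was 1.51, 1.28, 1.80 and 1.62%. The ranges of the 4 control and the 4 Arpc4ΔCx3cr1 mice overlapped, with means of 1.25% ± 0.32 and 1.56% ± 0.22 (SD, n = 4 each). Thinned to 2000 UMIs a cell, the means were 0.61% ± 0.15 and 0.69% ± 0.18, after 289 control and 329 Arpc4ΔCx3cr1 microglia were left out as shallower. The exact binomial 95% interval of each mouse's share covers counting error only and was 0.48 to 1.84% for control mouse 1, which had the fewest microglia (997).

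The summed level followed the rich cells. It was 2.38, 4.03, 2.99 and 2.85 CPM in microglia of control mice 1 to 4, and 1490, 3.19, 4.21 and 3.25 CPM in those of Arpc4ΔCx3cr1 mice 1 to 4. Mouse 1 alone stood apart, and without its 3 rich cells, or at resolution 0.4 where they are not among the microglia, the difference between the genotype means was 0.67 and 0.51 CPM against 372 CPM. Without them mouse 1 stood at 4.30 CPM. The means without rich cells were 3.06 ± 0.69 CPM in control and 3.74 ± 0.60 CPM in Arpc4ΔCx3cr1 mice (SD, n = 4), with overlapping ranges.

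Among single members, Hbb-bs was the most frequent in microglia without rich cells, at 71 UMIs in control and 98 in Arpc4ΔCx3cr1 mice. Hbb-bt had 11 and 30 UMIs, Hba-a1 9 and 11, and Hba-a2 12 and 26. In the fit of all genes by genotype only Hbb-bs passed the filter on low counts. Its fitted log2 difference, Arpc4ΔCx3cr1 minus control, was 6.86 (SE 2.22) with all cells, 0.15 (SE 0.30) without the rich cells, and 0.04 (SE 0.32) without Arpc4ΔCx3cr1 mouse 1. That fit called 46.0% of 12730 genes, and nothing is read from it for Hbb-bs.

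**Figure D3:**
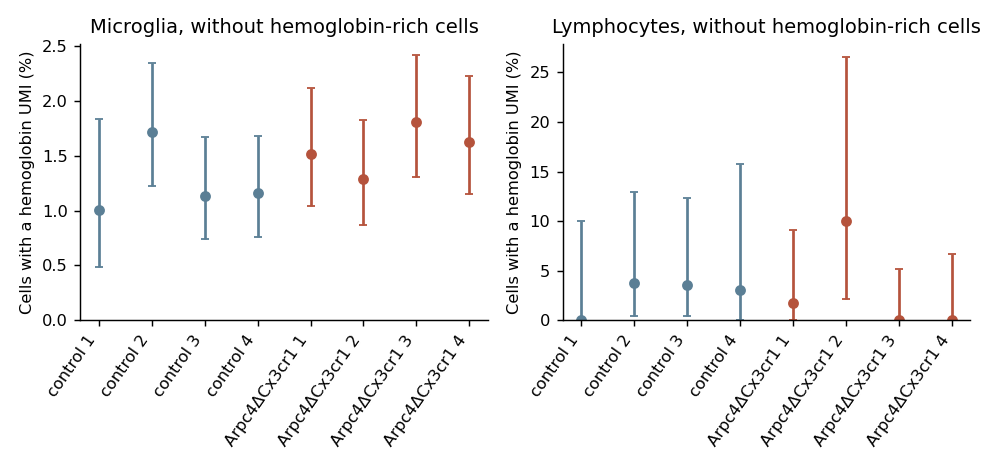
Share (%) of microglia (left) and lymphocytes (right) with at least 1 hemoglobin UMI in each mouse, without rich cells, with exact 95% binomial intervals. Microglia of the 8 mice lie between 1.00 and 1.80% with overlapping intervals, and the lymphocytes, 30 to 69 a mouse, lie between 0 and 10.0% with far wider ones.

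The share showed no order by the Ms4a7 count. In microglia of Arpc4ΔCx3cr1 mice with 0 Ms4a7 UMIs, 1.26 to 1.94% were positive in the 4 mice without rich cells. With 1 Ms4a7 UMI the range was 0.62 to 2.70%, with 2 to 3 it was 0.88 to 2.89%, and with 4 or more 0.45 to 1.71%. The ranges of all classes overlapped. Over the 4 mice 16 of 1139 cells with 4 or more Ms4a7 UMIs were positive, and 105 of 6684 cells with 0. Control microglia with 0 Ms4a7 UMIs were positive in 1.03 to 1.69% of cells, and only 52 control microglia had 4 or more Ms4a7 UMIs, none of them positive (0 of 52, which allows a share of up to 6.85% by the exact interval).

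**Figure D4:**
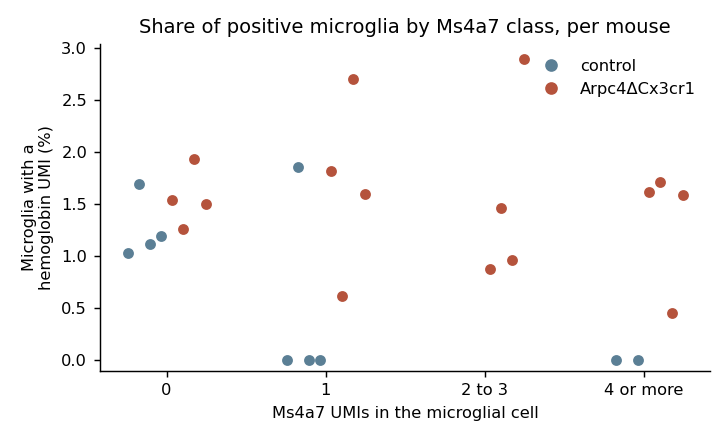
Share (%) of microglia with a hemoglobin UMI in each mouse by the number of Ms4a7 UMIs in the cell, without rich cells; classes of a mouse with under 10 cells are left out. Arpc4ΔCx3cr1 mice lie between 0.45 and 2.89% in all 4 classes with no order among them.

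Without the rich cells, more deeply counted microglia were positive more often, while their level was not higher. Over 4 classes of nearly equal size, from the microglia with the fewest UMIs (590 to 3092) to those with the most (5301 to 34325), the share of positive cells was 0.96, 1.43, 1.46 and 1.90%. The level over the same classes was 3.98, 4.27, 3.30 and 3.10 CPM. The rich microglia left out here, with 6460 to 10091 gene UMIs, would all fall in the last class and raise its level. Among 12 clusters of microglia formed without the globin genes, the level without rich cells ran from 1.88 CPM to 6.62 CPM, and the exact Poisson intervals of these 2 clusters, 0.39 to 5.48 and 3.31 to 11.9 CPM, overlapped. The Ms4a7-high cluster stood at 5.46 CPM (3.53 to 8.06) without its 3 rich cells.

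Hemoglobin was also found in cells other than microglia. In lymphocytes, which should lack it, 9 of 388 cells were positive (2.32%, exact 95% interval 1.07 to 4.36%) at a median of 4136 UMIs, against 1.44% (1.26 to 1.63%) of microglia at a median of 4053.5. The lymphocyte level was 0, 25.4, 10.7 and 5.24 CPM in control mice 1 to 4 and 3.28, 31.0, 0 and 0 CPM in Arpc4ΔCx3cr1 mice 1 to 4, from at most 7 UMIs a mouse. The genotypes overlapped, at 10.3 ± 10.97 and 8.57 ± 15.0 CPM (SD, n = 4).

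In the other groups of cells the ranges of the genotypes overlapped as well. Monocyte-like cells stood at 4.27 ± 3.27 CPM in control and 5.06 ± 6.25 CPM in Arpc4ΔCx3cr1 mice. CAM-like cells stood at 7.39 ± 8.36 and 130 ± 250 CPM, the latter through the 1 cell with 75 UMIs, without which it was 5.85 ± 4.05 CPM. All cells that were not microglia stood at 7.05 ± 4.56 and 2356 ± 4677 CPM, and at 6.52 ± 3.75 CPM in Arpc4ΔCx3cr1 mice without cells of 20 or more hemoglobin UMIs.

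Within a mouse, microglia and lymphocytes were also compared. The log2 ratio of their levels, with 10 CPM added to both, averaged 0.52 ± 2.67 (SD, n = 8) and was above 0 in 4 of 8 mice. Without the rich cells the mean was -0.32 ± 0.82, again with 4 of 8 mice above 0.

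Empty droplets held more hemoglobin per UMI than did cells with under 1000 hemoglobin UMIs as 1 sum (4.80 CPM), and less than all cells together with the rich ones (268 CPM). The 1769098 barcodes with 1 to 100 gene UMIs, which hold RNA free in the suspension, had 541 hemoglobin UMIs of 6848195, or 79.0 CPM (exact Poisson interval 72.5 to 85.9). Microglia without rich cells stood at 4.44% of that level, lymphocytes at 10.7%, monocyte-like cells at 8.52% and the unnamed low-UMI cells without the rich one at 12.96%. CAM-like cells stood at 64.7% of it, 9.32% in control and 206% in Arpc4ΔCx3cr1 mice, the latter with the 1 cell of 75 UMIs. The barcodes of at least 500 UMIs that were given to no mouse and had fewer than 20 hemoglobin UMIs stood at 3.37 CPM.

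Transcripts of granulocytes, of which only 80 were among the cells, also lay far below their level in empty droplets. S100a8 and S100a9, calcium-binding proteins of neutrophils, stood at 1266 and 1797 CPM in empty droplets and at 27.5 and 49.5 CPM in control microglia, or 2.17 and 2.75% of the empty level. The 6 granulocyte genes ranged from 2.17 to 2.75% in control and 1.97 to 2.58% in Arpc4ΔCx3cr1 microglia. The 4 hemoglobin genes ranged from 2.72 to 4.85% in control and 2.44 to 9.71% in Arpc4ΔCx3cr1 microglia, Hbb-bt being the highest at 9.71% (6.55 to 13.9%) on 30 UMIs. Hbb-bs, with the most UMIs, stood at 4.21% (3.29 to 5.31%) in control and 4.26% (3.46 to 5.20%) in Arpc4ΔCx3cr1 microglia. Both intervals lay above those of S100a9, 2.62 to 2.89% and 2.47 to 2.70%. In control the interval of Ltf, 1.92 to 3.62%, overlapped that of Hbb-bs. Those of Hbb-bt, Hba-a1 and Hba-a2 overlapped that of S100a9 in control, and in Arpc4ΔCx3cr1 microglia only that of Hba-a1 did. The intervals leave out the counting error of the empty droplets. Of the 6 granulocyte genes, 0 passed the test by genotype in microglia, and the part of free RNA in the single hemoglobin UMIs was not tested.

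**Figure D5:**
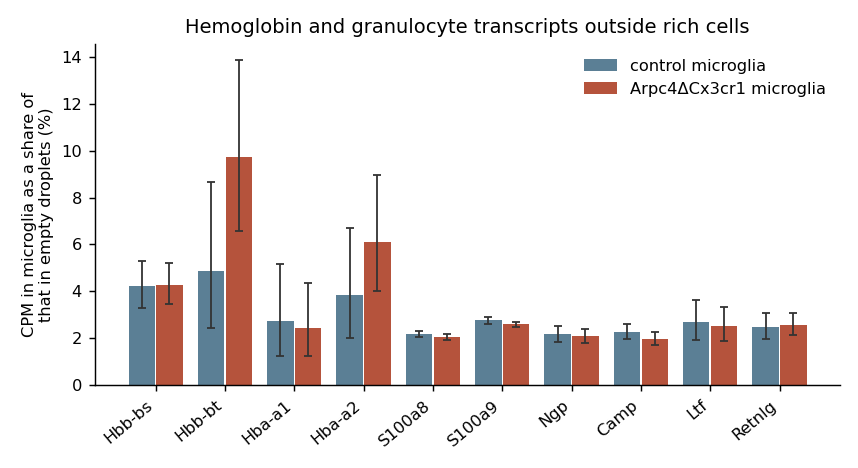
Level in microglia as a share (%) of the level in empty droplets for the 4 hemoglobin and 6 granulocyte genes, without cells of 20 or more hemoglobin UMIs; whiskers are exact 95% Poisson intervals of the UMIs in microglia. The granulocyte genes lie between 1.97 and 2.75% and the hemoglobin genes between 2.44 and 9.71%.

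Alpha genes took a minority of the hemoglobin UMIs in most groups. It was 25.1% in empty droplets (exact interval 21.5 to 29.0%, 541 UMIs), 29.2% in the rich cells (28.7 to 29.8%) and 23.8% in cells with under 20 hemoglobin UMIs (19.4 to 28.7%, 340 UMIs). In microglia it was 22.5% ± 6.0 in control and 23.2% ± 2.9 in Arpc4ΔCx3cr1 mice (SD, n = 4, exact two-sided permutation p = 0.943). The control shares rest on only 10 to 39 hemoglobin UMIs a mouse. That of Arpc4ΔCx3cr1 mouse 1 rests on 15983 UMIs, 15937 of them in its 3 rich cells. The comparison is therefore coarse, and a high p does not show that the shares are equal. Without rich cells Arpc4ΔCx3cr1 mice stood at 22.3% ± 1.2 (exact permutation p = 0.914). Lymphocytes had 9 alpha UMIs of 17 (52.9%, 27.8 to 77.0%), 6 of the 17 from 1 cell.

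Embryonic globins were not detected. Hbb-y, Hbb-bh1, Hbb-bh2 and Hba-x, chains of the embryo, had 0 UMIs in all cells, and Hbq1b had 2, both in cells with at least 20 hemoglobin UMIs. Erythroid genes differed in how far they lay in these 5 cells, which held 12 of 13 Slc4a1 UMIs, 34 of 129 Alas2 UMIs, 31 of 927 Bpgm UMIs, and 0 of the 34 Klf1 and 33 Gata1 UMIs.

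Some genes of heme and iron handling changed with the genotype in microglia. Of the 21 genes listed for heme breakdown and iron export 16 were tested, of which 7 rose and 5 fell (edgeR, adjusted p under 0.05), where 22.8% of all genes tested rose and 23.2% fell. The median log2 difference of the 16 was 0.10 against -0.01 over all 12730 genes. Hmox1, which cleaves heme, was at 18.8, 17.8, 17.7 and 19.4 CPM in control mice and at 56.4, 35.4, 49.5 and 39.2 CPM in Arpc4ΔCx3cr1 mice. The groups did not overlap, and the log2 difference was 1.40 (SE 0.14, edgeR adjusted p = 1.92e-05).

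The iron store and the iron exporter moved in opposite directions. Fth1, the heavy chain of ferritin, rose from 2793 to 3094 CPM in control mice to 6512 to 11439 CPM in Arpc4ΔCx3cr1 mice (log2 difference 1.61, SE 0.15, edgeR adjusted p = 9.92e-06), and Ftl1, the light chain, rose by 0.74 (SE 0.06). Slc40a1, the iron exporter ferroportin, was at 121 to 131 CPM in control mice and at 8.77, 39.3, 30.6 and 21.2 CPM in Arpc4ΔCx3cr1 mice (log2 difference -2.24, SE 0.31, edgeR adjusted p = 1.49e-04). Ncoa4, which delivers ferritin for breakdown, fell by 0.89 and Bach1, a repressor of Hmox1, by 0.51 on the log2 scale, while Nfe2l2, an activator of it, rose by 0.75. Each of these genes kept its side of the threshold in 13 of 13 alternatives, the fit without the rich cells among them. The hemoglobin scavenger receptor Cd163 stood at 0.19 CPM in control and 0.32 CPM in Arpc4ΔCx3cr1 microglia and did not pass the filter on low counts.

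Genes for the uptake of red cells and debris rose and fell in equal number, 4 each of 12 tested, beside 22.8% of all genes tested that rose and 23.2% that fell. Axl, a receptor for phosphatidylserine-coated cells, rose from 15.7 to 23.5 CPM to 231 to 281 CPM (log2 difference 3.75, SE 0.12, edgeR adjusted p = 2.13e-08), and Cd36, a scavenger receptor, by 3.39 (SE 0.33). Stab1, a scavenger receptor, fell by 1.10 and Gas6, a ligand of Axl, by 1.20. Msr1, another scavenger receptor, was at 42.2 CPM in Arpc4ΔCx3cr1 mouse 1 and at 3.01 to 6.77 CPM in the other 3, beside 3.10 to 4.13 CPM in control mice. Its call (adjusted p = 0.043 by edgeR) was lost without any 1 of the control mice, and without Arpc4ΔCx3cr1 mouse 1 its log2 difference was 0.69. Of 9 heme synthesis genes Alas1 rose by 0.35 and Ppox fell by 0.35, and the other 7, Alas2 among them, did not pass, so that 2 of 9 were called where 46.0% of all genes were. The same 46.0% stands beside the counts of the next 3 lists. Of 9 erythroid markers tested Tmcc2 (0.98), Tspan33 and Tent5c (0.51 each) rose, and Slc25a37 (-0.95), Ermap (-0.81) and Bpgm (-0.43) fell, the call of Bpgm being lost in 3 of 13 alternatives. Of 7 genes of other brain cells 3 rose and 2 fell, and of 2 genes listed for platelets Gp9 fell by 3.73. Gp9 had 1290 UMIs in control microglia and was among the leading genes of a microglial cluster with 3.28% Arpc4ΔCx3cr1 cells. Ppbp and Gp1bb of the same list had 3 UMIs each in all cells.

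Microglia with and without a hemoglobin UMI were compared over all other genes. Within the 4 Arpc4ΔCx3cr1 mice, 36, 30, 43 and 38 positive microglia were summed per mouse and set against the others of the same mouse. Of 11547 genes tested 0 passed an adjusted p of 0.05 by edgeR (0%), 572 had an unadjusted p under 0.05, and DESeq2 also called 0. Since both sums of a pair come from 1 mouse, the mouse was also fitted as a block, and then 1 gene passed. It was Csmd3, chosen here after its value was seen, higher in positive cells by 1.06 on the log2 scale (SE 0.13, edgeR adjusted p = 3.58e-11). Its level was 101.01, 687, 108 and 347 CPM in positive and 59.3, 240, 165 and 75.9 CPM in negative cells of mice 1 to 4, that is higher in 3 of 4 mice. The SE and p are those of the fit and do not measure this spread over the mice. Without the block Csmd3 differed by 1.02 on the log2 scale, with an adjusted p of 0.99 by edgeR. Without the rich cells edgeR called 0 of 11541 genes (611 at an unadjusted p under 0.05).

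With no filter on low counts 4 genes were called, all higher in positive cells, Car2 and Alas2 among them. Car2 had 25 UMIs in positive and 15 in negative cells, and Alas2 20 and 49. The 3 rich cells of Arpc4ΔCx3cr1 mouse 1 held 23 of these 25 Car2 UMIs and 19 of these 20 Alas2 UMIs. Of 7 erythroid markers and of 16 genes of heme breakdown and iron export that passed the filter, 0 were called in either direction.

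The genes with the pattern most like the members also changed with the rich cells. Over 40 sums of mouse and microglial cluster with at least 50 cells, which share the library and differ in depth, the 5 genes with the highest Pearson r to the summed members among 8723 were Hip1 (0.67), Tgfbi (0.65), Pla2g7 (0.62), Dab2 (0.60) and Klf13 (0.60). Without the rich cells they were Naa50 (0.72), Deaf1 (0.60), Tmed8 (0.54), Tradd (0.53) and Irak4 (0.53), none of them among the first 5. The rich microglia all lie in 1 of the 40 sums, so the first list rests largely on that sum. Without them all microglia held 268 hemoglobin UMIs, so the second list rests on few counts. Neither list shows that the genes are expressed together.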

How the data were processed

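Per the labels and the study's methods, the authors tagged cells of each mouse with cell multiplexing oligos, made 1 pooled 3′ library on the 10x platform, aligned it to mm10 with Cell Ranger (version 7.1.0 in the file headers, 6.1.2 in the submitters' processing notes) and deposited raw UMI counts in a table for each mouse and in 1 table of every barcode of the pool. The study's methods also describe SoupX, used there to take out cells contaminated by ambient (free) RNA. That step was not applied here and does not touch these deposited counts. How reads that match several genes were counted is not given in the sources used here. The counts were checked to be equal in both kinds of table for all 19864 cells, and no barcode was shared by mice. Mice were mapped to genotypes by their tags.

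A cell was kept if it had 200 genes or more and no more than 20% of its UMIs were mitochondrial (19863 cells). They were clustered with Seurat 5.3.0 (10000 variable genes less 13 globin genes, 20 components, resolution 0.8). Clusters were named from marker lists, by limits chosen after the clusters were seen. No doublet caller was run. Barcodes with 1 to 100 gene UMIs served as empty droplets. CPM are taken over gene UMIs, tags left out. Sums per mouse over microglia were tested with edgeR 4.0.16 (TMM factors, quasi-likelihood test, Benjamini-Hochberg adjustment over all genes), and DESeq2 1.42.0 was an alternative. The share of alpha UMIs was compared by exact permutation over mice, and hemoglobin levels were given without a test. Scripts for many genes were tested on simulated data. The limit for hemoglobin-rich cells and the alternatives without them were chosen after the data were seen. The members and gene lists were chosen with earlier results of these data known. Genes named are the 4 members, list genes past the threshold, Arpc4, Ms4a7 and the 5 genes most like the members. For positive against negative microglia the rule named up to 10 rises and 5 falls, and none passed. Values of some genes of the lists are not reported here.

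The replicate numbers were given by the labels. Between genotypes they do not pair the mice, whereas the positive and negative sums of a mouse are paired by animal. The mice are separate animals of 1 library, and intervals cover counting error only.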

Additional observations from a re-analysis of the deposited data

Results flagged for a closer look

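Over the 36 groups of 4 mice examined, 6 values lay farther from the other 3 mice than Dixon's 95% limit allows. The limit served only to flag values and is not read as a test. Its chance rate of about 1 in 20 holds for separate groups of normally distributed values. These groups overlap in their cells, and many rest on few UMIs. The summed hemoglobin level in microglia was 1490 CPM in Arpc4ΔCx3cr1 mouse 1, and in CAM-like cells of the same mouse 505 CPM. In Arpc4ΔCx3cr1 mouse 2 it was 43078 CPM in the unnamed low-UMI cells, 9371 CPM in all cells other than microglia and 31.0 CPM in lymphocytes, where 10.0% of the 30 cells were positive (3 cells, 5 UMIs). The microglial value, which does not hold with clusters at resolution 0.4, rests on 3 cells, that of CAM-like cells on 1, and those of unnamed cells and of all others on 1, as given above.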

How the results depend on the processing

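Of 124 alternatives over all results computed, tests of hemoglobin levels that are not printed among them, 110 were counted as unchanged. Depending on the result, this meant the same direction, the same side of the threshold, or a value near the main one. For results given as a p-value only the side of the threshold was counted, and the direction of the difference changed in some alternatives. The mean log2 ratio of microglia to lymphocytes was 0.52 in the main setting and -0.32 without the rich cells. The difference in lymphocyte level, Arpc4ΔCx3cr1 minus control, was -1.76 CPM in the main setting and 3.27 CPM without control mouse 2. The difference of hemoglobin CPM in microglia between genotype means (372) rests on 3 cells: it was 0.67 without the rich cells, 0.51 with clusters at resolution 0.4, where these cells are counted as CAM-like, 87.2 without cells over 2 times the median UMI count, 203 in microglia without an Ms4a7 UMI, 215 with each cell thinned to 2000 UMIs, 371 with free RNA subtracted at 10% and 530 with the unnamed low-UMI clusters counted as microglia. Leaving out each mouse gave 0.48 (without Arpc4ΔCx3cr1 mouse 1) to 496. The difference in the share of positive microglia (0.34 percentage points) ran from 0.10 to 0.49 over 16 alternatives. Genes called between positive and negative microglia numbered 0, but 4 with no filter on low counts, 1 with the mouse as a replicate block, and 1 with the block and without the rich cells; the cause was not tested.

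Between genotypes, same-numbered mice correlated at -0.07 to -0.0044, so they share only a number, and the fit with the replicate block called 5522 genes against 5855 without it. Leaving out each mouse gave 5162 to 6381. The alternative that counts a microglia as positive from 2 UMIs was not run for the genes, because 1 Arpc4ΔCx3cr1 mouse had no such cell. Lymphocytes held at most 7 hemoglobin UMIs a mouse.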

Other observations

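Cells with genes of early red cell precursors were also present, and they held no hemoglobin. Car1, a carbonic anhydrase of early erythroid cells, had 888 UMIs in all cells, 873 of them in 3 proliferating cells with 542, 169 and 162, from Arpc4ΔCx3cr1 mouse 2, control mouse 3 and control mouse 1. The same cells had 13, 5 and 3 UMIs of Klf1 and 8, 8 and 5 UMIs of Gata1, both transcription factors of the red cell lineage. With 53012, 23405 and 25659 gene UMIs they were deep, yet each had 0 UMIs of the 4 hemoglobin genes. These 3 cells were chosen after their values were seen.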
